A study of Mus musculus with 6 samples.

Results

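Histones are acetylated by acetyltransferases, the writers, and the mark is bound by proteins with bromodomains, the readers, and removed by deacetylases, the erasers. Acetylated histone tails mark active promoters and enhancers, and the balance between writers and erasers sets how much of the mark a region carries. In humans, mutations in CREBBP or EP300 cause Rubinstein-Taybi syndrome and mutations in KAT6A or KAT6B cause other syndromes with unusual facial features, so these genes have long been studied in craniofacial development.

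The 9 genes described here are 4 acetyltransferases (Crebbp, Ep300, Kat6a and Kat6b), 2 readers of the BET family, named for their bromodomains and extra-terminal domain (Brd2 and Brd3), and 3 deacetylases (Hdac1, Hdac2 and Hdac3). They were chosen with earlier results of these data known, and were taken by symbol from the 54532 Ensembl gene IDs of the count tables. All 9 matched 1 ID each and all 9 passed the filter on low counts, among 14008 genes tested. Total RNA was sequenced from pools of heads of mouse embryos at embryonic day 8.5. Mutant pools came from embryos with a neural crest deletion of Sf3b4, which encodes a subunit of the SF3B splicing complex, and the sample titles call them homozygous nulls; wild-type pools came from Sf3b4 wild-type embryos. There were 3 pools per genotype, each of 3 heads collected before defects of form appeared. The sources used here give no strain, no Cre driver and no allele shared by the genotypes. They do not say that pools were from different litters, so p-values reflect only how these pools vary.

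The libraries held 7420956 to 12251910 counts in the mutant pools and 6930827 to 11797020 in the wild-type pools. Sf3b4 itself was at 56.1, 64.2 and 60.9 CPM (read counts scaled to a common library size with TMM factors) in mutant pools 1 to 3, against 77.7, 72.8 and 63.9 CPM in wild-type pools 1 to 3. The groups overlapped slightly, and the log2 fold change was -0.24 (SE 0.0918), which missed the threshold (Benjamini-Hochberg adjusted p = 0.128 by edgeR). Gene-level counts cannot show where the deletion lies. Whole heads hold many cells besides neural crest. The summed level of 10 neural crest markers was 316 to 356 CPM in the mutant pools and 432 to 473 CPM in the wild-type pools, and 5 of the 10 fell. That of 9 neural tube markers was 517 to 566 against 571 to 594 CPM, and that of 8 surface ectoderm markers 548 to 605 against 447 to 488 CPM, and in those lists 3 of 9 fell and 1 of 8 rose. Head mesoderm markers (187 to 204 against 142 to 167 CPM) and endothelial markers (287 to 299 against 242 to 270 CPM) were also separated by genotype. Of the head mesoderm markers 3 of 6 tested rose, as did 1 of 8 endothelial markers. Markers that fell or rose had an edgeR adjusted p under 0.05, where 3.88% of all tested genes were lower and 2.65% higher. No marker of these lists was at 0 in all pools. In heads, fewer cells of a type and less RNA per cell cannot be told apart, and the part of cell composition in the results below was not tested.

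Crebbp, Ep300 and Kat6a, all acetyltransferases, were lower in the mutant pools, where Kat6a fell by 19.7%, Crebbp fell by 23.1% and Ep300 fell by 23.6%. Brd2, Brd3, Hdac1, Hdac2, Hdac3 and Kat6b did not pass the test. Of the 9 genes, 3 were called lower (edgeR quasi-likelihood test, two-sided, adjusted p under 0.05 over all genes), where 3.88% of all tested genes were called lower. None was called higher, where 2.65% of all tested genes were. At an unadjusted p under 0.05 the counts were 3 lower and 1 higher of the 9, where 12.2% and 11% of all tested genes were, so the count of 1 higher is at the background. The median log2 fold change of the 9 genes was -0.12, against 0.00 over all tested genes, and the medians were -0.35 for the 4 acetyltransferases, -0.03 for the 2 BET readers and -0.08 for the 3 deacetylases.

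**Figure D1:**
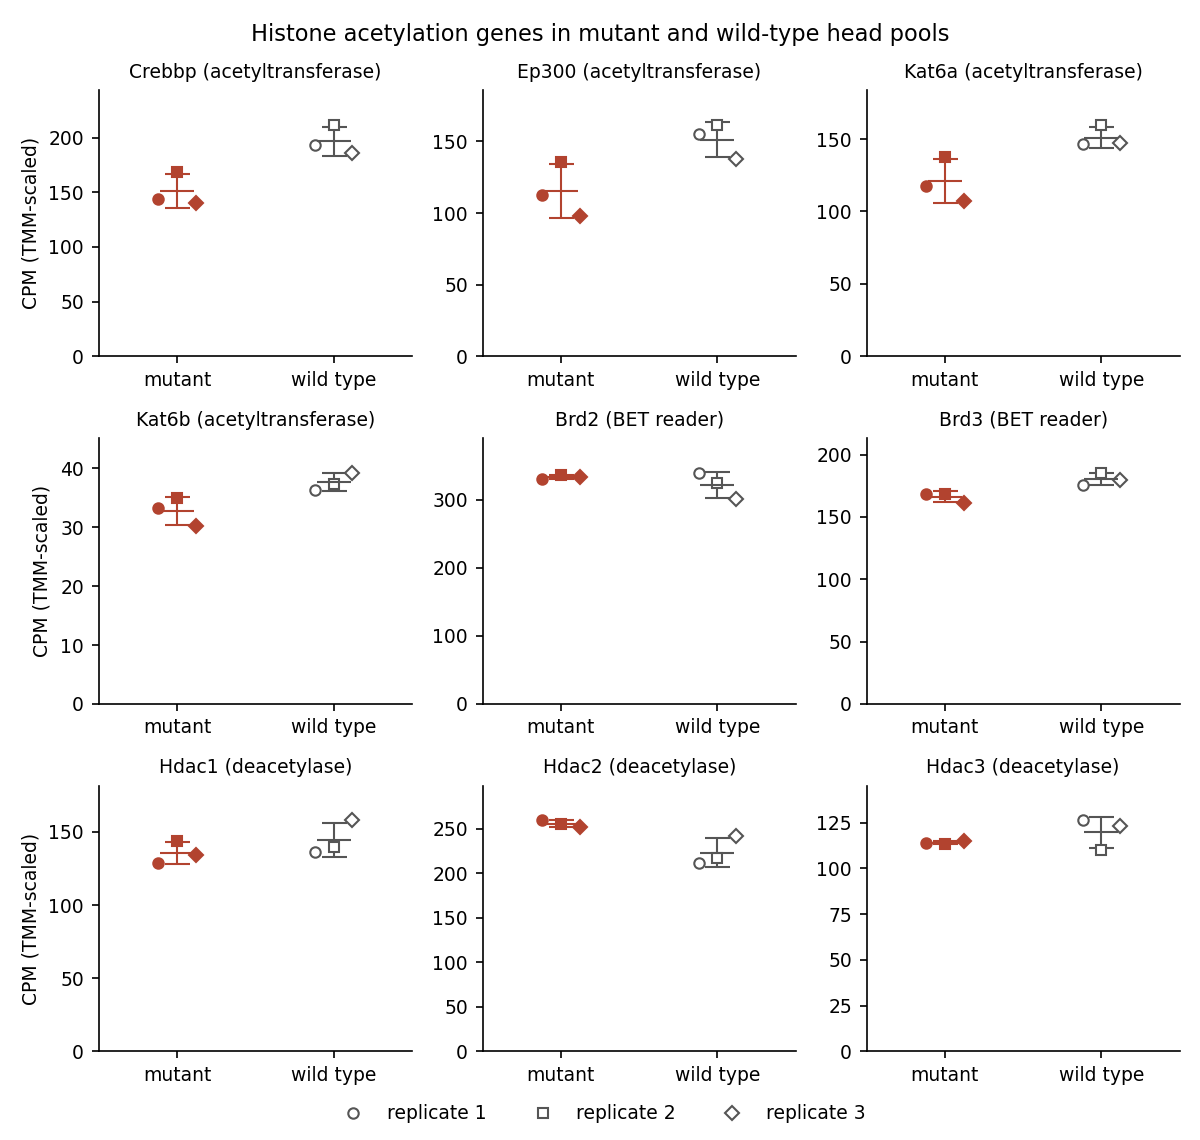
Level of each gene in CPM (TMM-scaled, axes from 0) in the 3 mutant pools (left, filled) and the 3 wild-type pools (right, open), with the mean and SD. All mutant points lie below all wild-type points for Crebbp, Ep300, Kat6a, Kat6b and Brd3 and above them for Hdac2, while the groups overlap for Brd2, Hdac1 and Hdac3.

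Crebbp encodes CBP, a large coactivator with an acetyltransferase domain and a bromodomain that is recruited to enhancers by many transcription factors. The gene (ENSMUSG00000022521) lies on mm10 chromosome 16 from 4081328 to 4213997 on the minus strand. It was at 144, 169 and 141 CPM in mutant pools 1 to 3, against 193, 211 and 186 CPM in wild-type pools 1 to 3. The groups did not overlap, and mutant replicate 2 was the highest of the mutant pools. The mean was 151 ± 15.2 CPM in mutant pools and 197 ± 13.3 CPM in wild-type pools (SD, n = 3 each). The log2 fold change was -0.38 (SE 0.0841, 95% interval -0.56 to -0.20), so Crebbp fell by 23.1% (edgeR adjusted p = 0.0145).

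Ep300 encodes p300, the close paralogue of CBP. The gene (ENSMUSG00000055024) lies on chromosome 15 from 81585351 to 81652077 on the plus strand. It was at 113, 136 and 97.6 CPM in the mutant pools, against 155, 161 and 138 CPM in the wild-type pools. The groups did not overlap, but mutant replicate 2 came within a few CPM of wild-type replicate 3. The mean was 115 ± 19.1 CPM in mutant pools and 151 ± 12.2 CPM in wild-type pools (SD, n = 3 each). Ep300 fell by 23.6%, and the log2 fold change was -0.39 (SE 0.107, 95% interval -0.62 to -0.16). The edgeR adjusted p was 0.0497, just inside the threshold, and limma-voom gave 0.0526. The ratio of Crebbp to Ep300 in CPM per kilobase of exon was 1.35, 1.31 and 1.52 in the mutant pools and 1.31, 1.38 and 1.42 in the wild-type pools, and the groups overlapped.

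Kat6a, also known as Moz, encodes the catalytic subunit of a complex with BRPF scaffold proteins and is needed for blood stem cells and for normal segment identity in mice. The gene (ENSMUSG00000031540) lies on chromosome 8 from 22859535 to 22943259 on the plus strand. It was at 118, 138 and 107 CPM in the mutant pools, against 146, 160 and 147 CPM in the wild-type pools. The mutant pools all lay below the wild-type pools, with mutant replicate 2 again the highest mutant. The log2 fold change was -0.32 (SE 0.0878, 95% interval -0.50 to -0.13), and Kat6a fell by 19.7% (edgeR adjusted p = 0.0420).

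Kat6b, the paralogue of Kat6a (chromosome 14, 21481434 to 21672478, plus strand), was the least abundant of the 9 genes. It was at 33.3, 34.9 and 30.2 CPM in the mutant pools, against 36.3, 37.4 and 39.3 CPM in the wild-type pools. The groups did not overlap, but the gap between them was small, and the log2 fold change of -0.20 (SE 0.0940, 95% interval -0.40 to 0.0031) did not pass (edgeR adjusted p = 0.224). All 4 acetyltransferases thus had every mutant pool below every wild-type pool, a separation found in 14.4% of all tested genes.

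**Figure D2:**
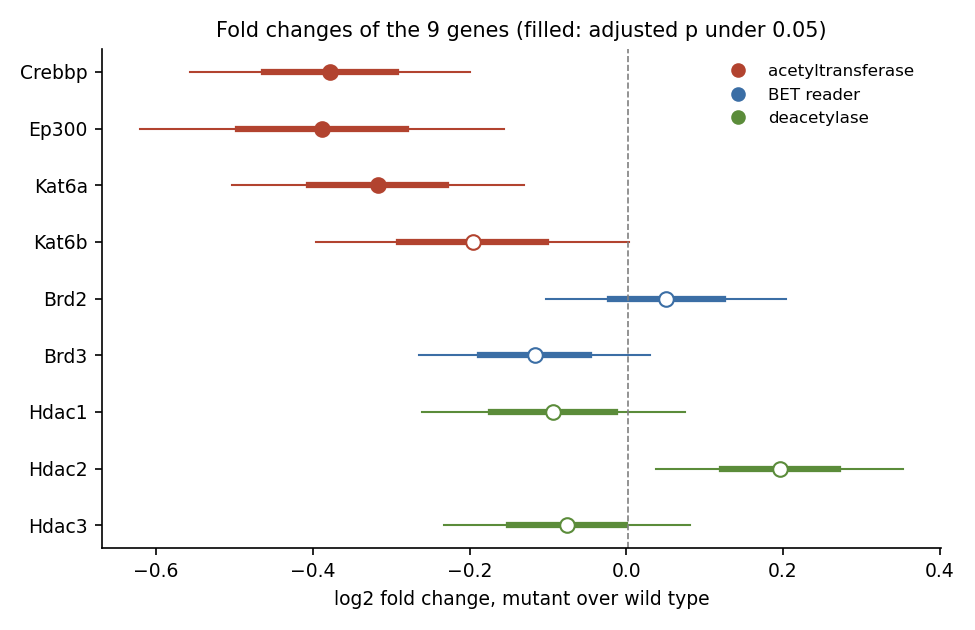
Log2 fold change of each gene, mutant over wild type, with 1 SE (thick line) and the 95% interval (thin line); filled points passed the edgeR test and the dashed line is the median of all tested genes. The 4 acetyltransferases run from -0.39 to -0.20, the BET readers from -0.12 to 0.05 and the deacetylases from -0.09 to 0.20.

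The calls of the acetyltransferases depended on the settings and on which pools entered the test. With all pools kept, Ep300 and Kat6a did not pass with limma-voom or without robust estimation. Ep300 also did not pass with median-of-ratios scaling or with a filter at a mean of 1 CPM. Crebbp and Ep300 did not pass with the length and GC correction described below. Crebbp did not pass without mutant replicate 1, mutant replicate 3 or wild-type replicate 2 (edgeR adjusted p = 0.110, 0.0841 and 0.0838), and neither did Kat6a (0.198, 0.179 and 0.162). Ep300 was also lost without those pools (0.187, 0.151 and 0.174) and without wild-type replicate 1 (0.109). All 3 log2 fold changes stayed negative in each of 17 alternative settings, between -0.46 and -0.21 for Crebbp, -0.51 and -0.22 for Ep300 and -0.41 and -0.24 for Kat6a. Mutant replicate 3 and wild-type replicate 1 had almost no reads on 4 Y-linked genes (1 count each, against 344 to 664 in the other pools). In the 4 pools with Y-linked reads the log2 fold changes were -0.35, -0.27 and -0.27 for Crebbp, Ep300 and Kat6a, and none passed (edgeR adjusted p = 0.0702, 0.192 and 0.126).

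**Figure D3:**
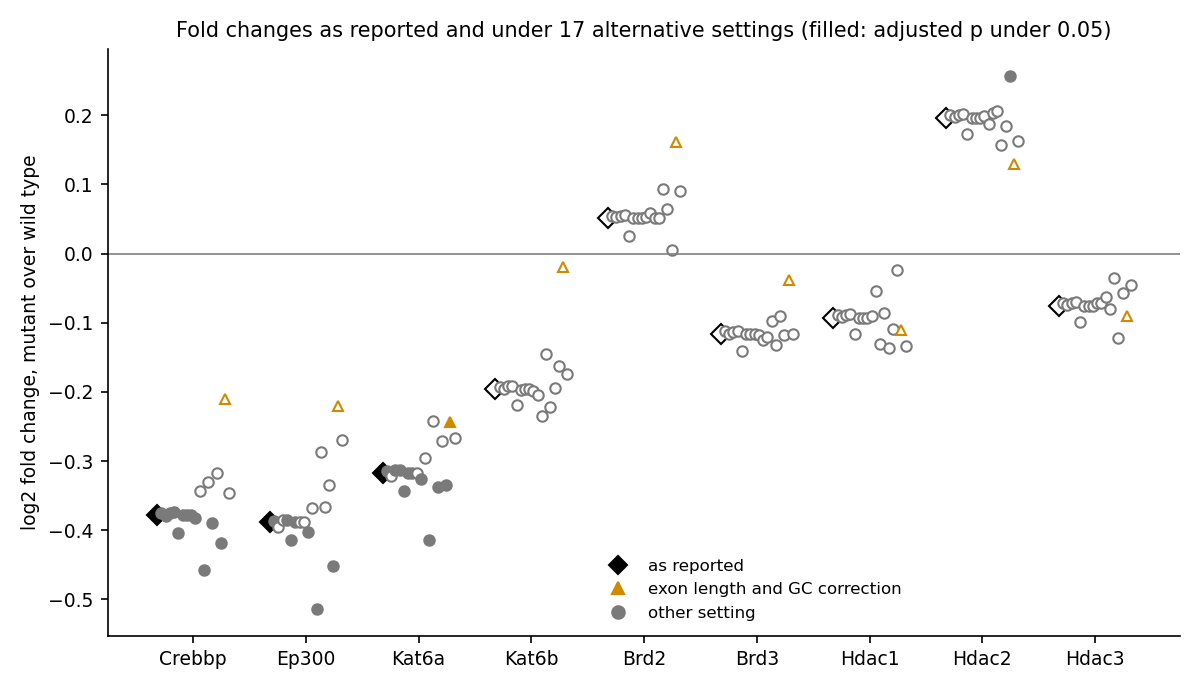
Log2 fold change, mutant over wild type, of the 9 genes as reported (diamonds), under the exon length and GC correction (triangles) and under the other alternative settings (circles); filled symbols passed at an adjusted p of 0.05. Of 17 alternative settings Crebbp passed in 12, Kat6a in 11, Ep300 in 7 and Hdac2 in 1.

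The BET readers bind acetylated histone tails through paired bromodomains and help to recruit the transcription elongation machinery. Brd2 (chromosome 17, 34112023 to 34122634, minus strand) was at 331, 336 and 333 CPM in the mutant pools, against 339, 325 and 301 CPM in the wild-type pools. The mutant values lay inside the range of the wild-type values, and the log2 fold change was 0.05 (SE 0.0723, 95% interval -0.10 to 0.20, edgeR adjusted p = 0.714). Of its exonic bases 9.78% overlap genes on the opposite strand, one of which, H2-DMa, had 39 counts in all pools together against 19143 for Brd2.

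Brd3 (chromosome 2, 27445579 to 27507662, minus strand) was at 169, 169 and 162 CPM in the mutant pools, against 176, 185 and 180.0 CPM in the wild-type pools. The mutant pools lay below the wild-type pools by a narrow margin, and the log2 fold change of -0.12 (SE 0.0695, 95% interval -0.26 to 0.03) did not pass (edgeR adjusted p = 0.331). At an unadjusted p under 0.05 neither BET gene was called, and neither was by DESeq2 or limma-voom with adjustment.

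Hdac1 and Hdac2 are paralogous class I deacetylases that act in the Sin3, NuRD and CoREST complexes. Hdac1 (chromosome 4, 129516104 to 129542713, minus strand) was at 129, 144 and 134 CPM in the mutant pools, against 136, 139.9 and 158 CPM in the wild-type pools. The groups overlapped, and the log2 fold change was -0.09 (SE 0.0791, 95% interval -0.26 to 0.07, edgeR adjusted p = 0.513). Hdac1 has near-identical copies elsewhere in the genome that can share its reads. Gm10093 matches its longest transcript at 99.4% identity over 1444 bases and was read at 13.8 to 16.8 CPM, where the log2 fold change was -0.02 and the SE 0.127 (edgeR adjusted p = 0.943). Gm4864, at 94.6% identity, had 308 counts in all pools together, against 8219 for Hdac1, and Gm21834 had 0. Another copy, AC125456.1, at 96.3% identity over 1450 bases, is not among the gene IDs counted.

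Hdac2 (chromosome 10, 36974544 to 37001889, plus strand) was the only one of the 9 genes with every mutant pool above every wild-type pool. It was at 259.6, 256 and 252 CPM in the mutant pools, against 211, 218 and 242 CPM in the wild-type pools. Such a separation was found in 13.8% of all tested genes. The log2 fold change of 0.20 (SE 0.0741, 95% interval 0.04 to 0.35) did not pass (edgeR adjusted p = 0.128), although it did without wild-type replicate 3, with a log2 fold change of 0.26 (edgeR adjusted p = 0.0290). The ratio of Hdac2 to Hdac1 in CPM per kilobase, which does not depend on library scaling, was 1.55, 1.37 and 1.45 in the mutant pools and 1.20, 1.20 and 1.18 in the wild-type pools. The ratios did not overlap between genotypes, but how often ratios of other gene pairs separate in this way was not examined. The near-identical copies of Hdac1 can also affect this ratio.

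Hdac3, the catalytic subunit of nuclear receptor corepressor complexes (chromosome 18, 37935844 to 37955016, minus strand), was at 114, 113 and 115 CPM in the mutant pools, against 126, 110.3 and 123 CPM in the wild-type pools. The mutant values lay within the wild-type range, and the log2 fold change was -0.08 (SE 0.0739, 95% interval -0.23 to 0.08, edgeR adjusted p = 0.579). No deacetylase of the 3 was called by edgeR, DESeq2 or limma-voom with adjustment, and 1 of the 3, Hdac2, had an unadjusted edgeR p under 0.05.

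The writers were also set against the erasers within each pool, a ratio that does not depend on library scaling. The summed CPM per kilobase of the 4 acetyltransferases was 0.270, 0.307 and 0.248 of that of the 3 deacetylases in mutant pools 1 to 3, against 0.367, 0.400 and 0.321 in wild-type pools 1 to 3. The groups did not overlap, though mutant replicate 2 and wild-type replicate 3 lay close together. Merged exons are longer in each of the 4 acetyltransferases than in any of the 3 deacetylases, and fold changes fell with exon length, as described below. The ratio carries no correction for that trend, and the part of length in it was not tested. The ratio of Brd2 to Brd3 was 1.84, 1.87 and 1.93 in the mutant pools and 1.81, 1.64 and 1.57 in the wild-type pools. These did not overlap either, though mutant replicate 1 and wild-type replicate 1 lay close together. The ratio of Kat6a to Kat6b overlapped between genotypes. These ratios are descriptions of genes chosen for their roles with earlier results of these data known, and they carry no test. How often ratios of other genes separate the genotypes was not examined.

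Per length, the deacetylases and Brd2 were the most abundant. In CPM per kilobase of merged exons (mean ± SD, n = 3 each), Hdac2 was highest by the wild-type mean, at 57.2 ± 0.806 in mutant and 49.96 ± 3.59 in wild-type pools. Hdac1 followed at 39.4 ± 2.21 in mutant and 42.0 ± 3.39 in wild-type pools, and Brd2 at 42.6 ± 0.37 in mutant and 41.1 ± 2.48 in wild-type pools. Next came Hdac3 at 28.1 ± 0.19 in mutant and 29.6 ± 2.08 in wild-type pools and Brd3 at 22.7 ± 0.564 in mutant and 24.6 ± 0.651 in wild-type pools. The acetyltransferases came last. Kat6a was at 13.2 ± 1.68 in mutant and 16.5 ± 0.809 in wild-type pools and Crebbp at 11.2 ± 1.12 in mutant and 14.5 ± 0.98 in wild-type pools. Ep300 was at 8.08 ± 1.34 in mutant and 10.6 ± 0.855 in wild-type pools, and Kat6b was lowest at 1.95 ± 0.143 in mutant and 2.24 ± 0.0884 in wild-type pools. Among neighbours in this order, only Hdac1 and Brd2 overlapped across the wild-type pools. Merged exons include exons of rare transcripts, and by the length of the longest transcript Hdac1 (70.9 in wild-type pools), Brd2 (69.1) and Hdac2 (68.8) changed places, as did Crebbp (18.2) and Kat6a (16.6).

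The genes that fell are long, and long genes as a class had lower fold changes in these mutant pools. Merged exons spanned 13.5 kb in Crebbp, 14.3 kb in Ep300, 9.18 kb in Kat6a and 16.8 kb in Kat6b, against 3.45 kb in Hdac1, 4.47 kb in Hdac2 and 4.05 kb in Hdac3. When the tested genes were split into 5 equal classes by length, the 4 acetyltransferases and Brd2 (7.83 kb) lay in the longest class, and Brd3 (7.34 kb) in the next. In the longest class 10.4% of genes were called lower and the median log2 fold change was -0.10, while in the shortest class the median was 0.07. Of its 5 members here 3 fell, and Brd2 had a positive fold change. When each pool's trend on exon length and GC content was removed, the log2 fold changes were -0.21 for Crebbp (SE 0.0674), -0.22 for Ep300 (SE 0.0790) and -0.24 for Kat6a (SE 0.0725). Kat6a still passed (edgeR adjusted p = 0.0413), while Crebbp (0.0564) and Ep300 (0.0893) did not. In that fit 1 of the 9 genes was called lower where 4.1% of all tested genes were, and over all genes 574 were lower and 685 higher, against 543 lower and 371 higher without the correction. Kat6b then had a log2 fold change of -0.02 (edgeR adjusted p = 0.917). The cause of the trend with length was not tested.

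**Figure D4:**
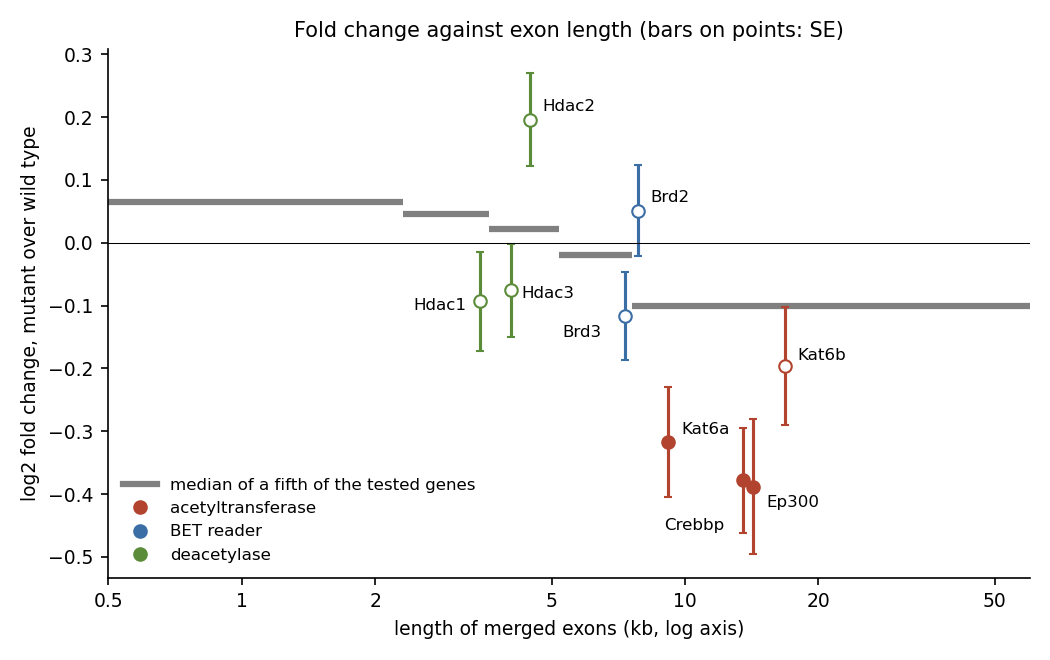
Log2 fold change, mutant over wild type, against the length of merged exons (log axis) for the 9 genes, with SE bars; filled points passed the edgeR test, and grey bars are the median of each of 5 equal length classes of the tested genes (the outer bars run past the axis). The 4 acetyltransferases lie below the median of the longest class, -0.10, and Brd2 above it.

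Other genes of the acetylation machinery were described in the same way. The lists were chosen for their roles, with earlier results of these data known. Of 118 tested genes in 7 lists of related proteins, 7 were lower and none higher (edgeR adjusted p under 0.05), or 5.93% lower, with a median log2 fold change of -0.08. Over all tested genes 3.88% were lower and 2.65% higher, so the share called lower after adjustment is not far from the background. In the longest length class 10.4% were lower, but the exon lengths of these 118 genes are not given here. At an unadjusted p under 0.05 the counts were 26 lower (22.0%) and 2 higher (1.69%), against 12.2% and 11% of all tested genes, and DESeq2 and limma-voom also called none higher. The number lower was 3 without mutant replicate 1, without mutant replicate 3 or without wild-type replicate 2, and it was 11, with 2 higher, when wild-type replicate 3 was left out. In 33 of the 118 (28.0%) every mutant pool lay below every wild-type pool, and in 6 (5.08%) above, against 14.4% and 13.8% of all tested genes. Of 10 other acetyltransferases none passed, by edgeR, and 1 had an unadjusted p under 0.05. The smallest p there were those of Ncoa3 (-0.20, edgeR adjusted p = 0.126) and Kat2b (-0.49, edgeR adjusted p = 0.298).

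Among 32 partners of acetyltransferases 2 fell (6.25%, against 3.88% of all tested genes). Trrap, a giant scaffold that tethers acetyltransferase complexes to transcription factors, was at 263, 275 and 236 CPM in the mutant pools, against 361, 367 and 333 CPM in the wild-type pools. Its log2 fold change was -0.45 (SE 0.0780, edgeR adjusted p = 0.00283). For Ep400, the ATPase of the TIP60 complex that Trrap shares, the log2 fold change was -0.46, with a SE of 0.0835 (edgeR adjusted p = 0.00415). The median of this list was -0.03.

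Among 19 other readers of acetylated lysine 2 fell (10.5%, against 3.88% of all tested genes) and 18 had negative fold changes (94.7%, against 49.7% of all tested genes), with a median of -0.13. In the longest length class 10.4% of genes were called lower, with a median of -0.10. The exon lengths of this list are not given here, and the part of length in its values was not tested. Those that fell were Baz2b (-0.34, edgeR adjusted p = 0.0202) and Baz2a (-0.33, edgeR adjusted p = 0.0238), bromodomain proteins of chromatin remodeling complexes. Of 7 partners of BET proteins and the elongation factor P-TEFb none passed by edgeR. At an unadjusted p under 0.05, 1 was lower and 1 higher (14.3% each, against 12.2% and 11% of all tested genes). Cdk9, the P-TEFb kinase, had a log2 fold change of -0.30 (edgeR adjusted p = 0.0541), and Larp7, part of the particle that holds P-TEFb inactive, one of 0.22 (edgeR adjusted p = 0.0964).

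Among 14 other deacetylases 1 fell (7.14%, against 3.88% of all tested genes). This was Hdac7, a class IIa enzyme with roles in blood vessels, which fell by 0.47 on the log2 scale (SE 0.116, edgeR adjusted p = 0.0250). It was at 26.2, 29.8 and 30.6 CPM in the mutant pools, against 39.8, 46.3 and 34.0 CPM in the wild-type pools. Of 31 corepressor genes 2 fell (6.45%, against 3.88% of all tested genes). Gps2 (-0.63, edgeR adjusted p = 0.00507) encodes a subunit of the complexes in which Hdac3 acts, and Ncoa5 (-0.26, edgeR adjusted p = 0.0467) encodes a coregulator of nuclear receptors. Hdac3, the enzyme of those complexes, did not pass. Of 5 genes that supply acetyl-CoA none passed by edgeR. At an unadjusted p under 0.05, 1 was lower (20%, against 12.2% of all tested genes). That was Acss2 (-0.42, edgeR adjusted p = 0.169), which makes acetyl-CoA from acetate, and Pdha1 was next (-0.10, edgeR adjusted p = 0.469).

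**Figure D5:**
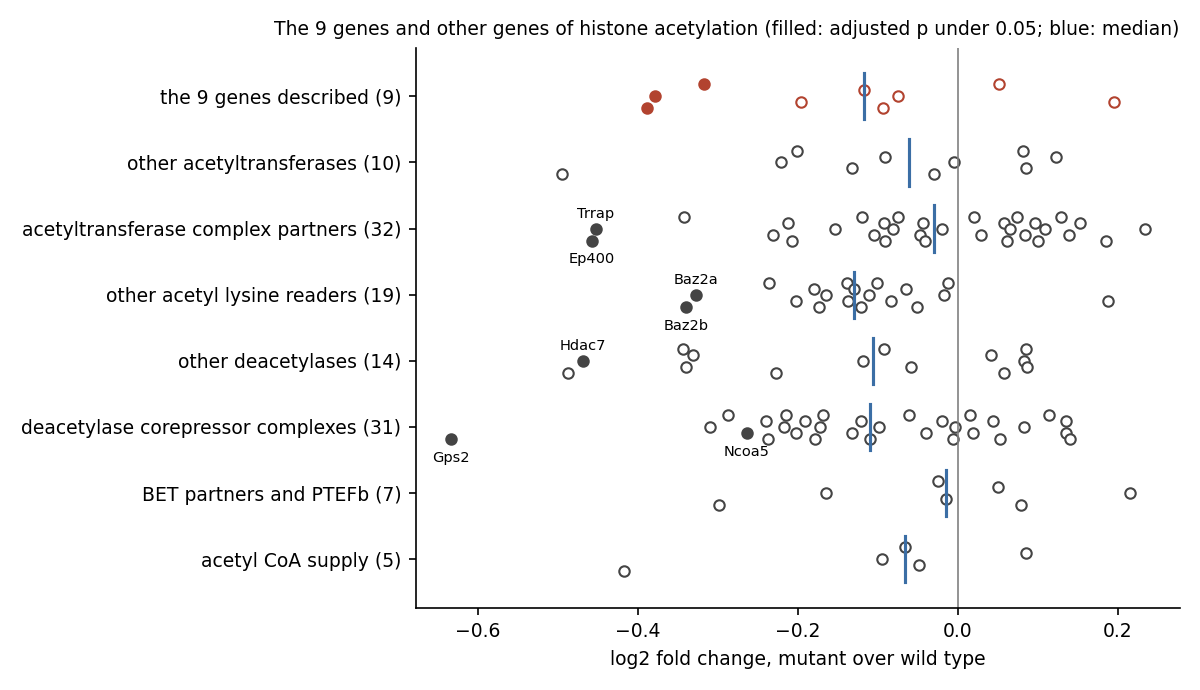
Log2 fold change, mutant over wild type, of each tested gene in the lists of histone acetylation genes, with the number of genes in parentheses; filled points passed the edgeR test and blue bars are list medians. Every named filled point lies on the lower side, from -0.63 for Gps2 to -0.26 for Ncoa5.

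Over the 6 pools Pearson's r of log2 CPM was 0.96 between Crebbp and Ep300, 0.98 between Crebbp and Kat6a and 0.86 between Crebbp and Kat6b. The reader Brd3 had an r of 0.93 with both Crebbp and Kat6a and of 0.88 with Ep300. With Crebbp it was less close than Ep300 and Kat6a were but closer than Kat6b, so a high r was not particular to the acetyltransferases. The r was -0.83 between Crebbp and Hdac2, as a description of pools that also share a genotype. Of 9367 other genes with a mean of at least 10 CPM, the most like Crebbp were Eif4ebp2, Tmem131 and Kis2 (r of 0.996 to 0.998 over 6 pools). The most like Ep300 were D630045J12Rik, Bod1l and Dlg5 (r of 0.993 to 0.996).

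Promoter windows from RefSeq (GRCm38.p6, 250 bases before to 50 after a start) were found for Crebbp, Ep300, Kat6b, Brd2, Brd3 and Hdac2. GENCODE places starts further upstream for some of these genes. All 250 bases before the RefSeq start lie in exons of longer GENCODE transcripts in Crebbp and Ep300, as do 72 in Brd3 and none in Hdac2, so the Crebbp and Ep300 windows are also transcribed sequence in that annotation. The windows of Crebbp, Ep300, Kat6b, Brd3 and Hdac2 held 30 to 49 CpG dinucleotides, against a median of 7 over 32851 windows, and all held the GC box GGGCGG on either strand, which 35.7% of all windows hold. To let the starts be compared, the 30 bases around the nearest GC box that ends before the start are shown, 5′ to 3′ on the strand of the gene, with the GC box in capitals.
Crebbp, chr16:4213408-4213437, minus strand: gcggccgggggcGGGCGGtgagcgctgcgg
Ep300, chr15:81586088-81586117, plus strand: ggaggaggaggaGGGCGGctctcagggtgg
Kat6b, chr14:21499729-21499758, plus strand: gggagcggggctGGGCGGcgctgcctcggg
Brd3, chr2:27475527-27475556, minus strand: cttgtacactctGGGCGGcggcggcggtgg
Hdac2, chr10:36974512-36974541, plus strand: ctcgcagccccgCCGCCCggaggcctaccc
In Crebbp this box overlaps another just upstream, in Brd3 another box spans the start itself, and in Hdac2 the box is on the opposite strand. Brd2 has 3 windows, and that of its most upstream start holds no GC box but the NRF1 motif, which is palindromic and is held by 0.971% of windows. All 30 bases of the Brd2 stretch shown lie in GENCODE exons, as do 27 of the 250 bases before that start.
Brd2, chr17:34122605-34122634, minus strand, with the NRF1 motif in capitals: gcacacccttGCGCATGCGCtatgtgtttc
The CCAAT box (CCAAT), the TATA box (TATAAA), the cyclic AMP response element (TGACGTCA) and the E-box (CACGTG) were searched on both strands and their letters were not in any of these windows; 37.4%, 13.6%, 1.79% and 7.15% of all windows hold them. The ETS motif CCGGAAG, held by 8.86% of windows, was found only in that Brd2 window among them. The GC box was present both in genes that fell (Crebbp and Ep300) and in genes that did not pass (Kat6b, Brd3 and Hdac2). Brd2, which also did not pass, holds it in its windows other than the most upstream. The Brd2 windows held 14 to 32 CpG dinucleotides.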

How the data were processed

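The deposited values are raw read counts for each Ensembl gene and pool, with no normalization. The submitters' processing notes give the build as mm10; no aligner, counting program, annotation or strand setting is named there, so those are not stated here. Per the labels' protocols, total RNA libraries were made with a TruSeq kit after column extraction. Of 54532 gene IDs 54495 matched GENCODE M21, which gave symbols, coordinates and exon lengths.

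Genes passed filterByExpr, were scaled by TMM factors and were tested with edgeR's quasi-likelihood test (robust, two-sided), Benjamini-Hochberg adjusted over all 14008 genes at a threshold of 0.05. A SE is the log2 fold change divided by the square root of F. The procedure was tested on simulated data, where it recovered 30% of genes changed 1.3-fold, 58.3% at 1.5-fold and 88% at 2-fold. Of its 146 calls 9 were false. Replicate libraries were distinct (chi-square per degree of freedom 3.01 to 3.67 between mutant pools and 5.86 to 10.3 between wild-type pools). Near copies had at least 90% identity over 150 bases (BLAST+ 2.17.0). Fits used edgeR 4.0.16, DESeq2 1.42.0 and limma 3.58.1 under R 4.3.3.

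The 9 genes and all lists were chosen with earlier results of these data known. Besides the 9 genes and Sf3b4, the text names up to 4 called genes of each list in order of p, otherwise the 2 smallest p, and the 3 genes most like Crebbp and Ep300. Alternatives were DESeq2, limma-voom, 3 other scalings, 2 other filters, no robust estimation, the replicate block, each pool left out, a spline correction for exon length and GC content, the 4 pools with Y-linked reads and a threshold of 0.1. Summed markers overlapped between genotypes for erythroid cells (90.6 to 184 CPM in mutant and 114 to 267 CPM in wild-type pools), heart (29.7 to 37.8 and 17.7 to 67.6 CPM) and foregut (41.8 to 50.5 and 46.2 to 53.4 CPM). Gltscr1l and Mideas matched no ID and were not analysed here, and 2 other listed genes are not reported here.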

Additional observations from a re-analysis of the deposited data

How the results depend on the processing

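The direction of all 9 genes was the same in 17 alternative settings, and the median of the 9 ranged from -0.14 to -0.09. The number of the 9 called lower was 1 with limma-voom, without robust estimation and with the length and GC correction, 0 with the 4 pools that had Y-linked reads, and 0 to 3 with 1 pool left out; the number called higher was then 0 to 1. Of the 118 related genes, 3 fell with those 4 pools alone, 11 were lower and 1 higher at a threshold of 0.1, and with 1 pool left out 3 to 11 were lower and 0 to 2 higher. Over all genes, 685 were higher with the length and GC correction and 624 without a filter on low counts, 286 were lower when the test used the 4 pools that had Y-linked reads, and 663 were higher and 887 lower at a threshold of 0.1. With 1 pool left out 123 to 920 genes were lower and 107 to 890 higher. The highest counts were without wild-type replicate 3 and the lowest without mutant replicate 1; the counts were 236 lower and 156 higher without mutant replicate 2, 227 and 216 without mutant replicate 3, and 183 and 184 without wild-type replicate 2. The cause of these shifts was not tested. Same-numbered pools did not deviate together (r of -0.17, 0.04 and -0.07 for numbers 1 to 3), and no pool correlated best with its own number, so the numbers were not taken to pair pools; with the replicate block 426 genes were lower and 268 higher, and 3 of the 9 were lower. Per kilobase of the longest transcript, the wild-type means were 18.2 for Crebbp, 15.8 for Ep300, 4.89 for Kat6b, 69.1 for Brd2, 33.3 for Brd3, 70.9 for Hdac1, 68.8 for Hdac2 and 33.4 for Hdac3. Precision is limited by the 3 pools of each genotype: the 95% intervals of the 9 log2 fold changes span 0 for Kat6b, Brd2, Brd3, Hdac1 and Hdac3.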
